A study of Homo sapiens with 10 samples.

Results

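Bone morphogenetic proteins (BMPs) and the genes that carry their signal were followed in Caco-2, a human colon carcinoma line whose cells can take on features of enterocytes. The 10 genes were 3 ligands (BMP2, BMP4 and BMP7), the receptors BMPR1A and BMPR2, the SMAD transcription factors SMAD1 and SMAD5, the inhibitory SMADs SMAD6 and SMAD7, and the pseudoreceptor BAMBI. They were taken by gene symbol from the 60554 genes listed in the deposited tables. All cells came from a single monoclonal line that stably expressed dCas9-KRAB, a Cas9 without cutting activity joined to a transcriptional repressor, selected with puromycin. This line was infected with a lentivirus bearing an empty guide plasmid (gCtl, 5 libraries) or a guide against the long noncoding RNA LHFPL3-AS2, called g1 (3 libraries) or g2 (2 libraries), each plasmid carrying a hygromycin resistance gene. The study compared cells with and without a guide to ask which genes depend on LHFPL3-AS2.

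BMPs are secreted proteins of the TGF-beta superfamily. They bring together type I and type II receptors, and the active type I receptor phosphorylates SMAD1, SMAD5 and SMAD9, which act with SMAD4 in the nucleus to switch target genes on or off. SMAD6, SMAD7 and BAMBI are themselves induced by the pathway and dampen it. In the gut, BMP signal is known to be strongest towards the villus tip and to oppose Wnt signal at the crypt base, where secreted antagonists hold it off.

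The QuantSeq libraries, read from the 3' end of polyadenylated RNA, held between 3838803 and 8730468 estimated counts each. In all 14 pairs of libraries of the same group, counts differed by more than sampling noise (chi-square per degree of freedom 4.29 to 26.1), so each library was counted as 1 sample. The labels do not say whether libraries of a group came from separate cultures, and p-values therefore measure the spread between these libraries, which may be technical. All 7 epithelial markers examined stood above 3 RPM (reads scaled to the library total) in every library. Of 8 enterocyte markers examined, 4 did so. SI stood at 0 to 0.36 RPM in gCtl and 0.96 to 2.86 RPM with a guide, and ALPI, APOA4 and ANPEP reached at most 1.14 RPM in any library. LHFPL3-AS2 itself was not lower in the libraries labelled g1 or g2. It stood at 1.66, 0.81, 3.61, 1.67 and 3.11 CPM (counts scaled to the library total and by TMM) in gCtl, at 2.94, 3.88 and 2.16 CPM in g1, and at 2.37 and 6.40 CPM in g2. The mean log2(RPM + 1) was 0.47 higher in the libraries with a guide (exact two-sided permutation test, p = 0.1905, where 0.00794 is the smallest p that 5 against 5 libraries can give). These values rest on 4.39 to 44.0 estimated counts per library. Directions below are given for the libraries as labelled. Replicate numbers were given here and only name the libraries of a group.

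Of the 10 genes, 9 were expressed above the filter (RPM over 3 in at least 20% of the libraries) and entered the test, and SMAD7 did not. With the g1 and g2 libraries pooled against gCtl, BMP4, BMP7 and BAMBI fell and BMP2 rose, where a call required an adjusted p no higher than 0.05 (edgeR quasi-likelihood test, Benjamini-Hochberg over 11640 genes) together with a 1.5-fold or larger change. The other 5 tested genes (BMPR1A, BMPR2, SMAD1, SMAD5 and SMAD6) were not called. The 3 decreases were 33.3% of the tested members, beside 11.0% of all genes tested that were called lower, and the single increase was 11.1%, beside 8.14% of all genes called higher. The median log2 fold change was -0.16 over the 9 members and 0.02 over all genes tested. In 3 members (BMP4, BMP7 and BAMBI) every library with a guide lay below every gCtl library, an arrangement shown by 8.33% of all genes tested. In 2 members (BMP2 and BMPR1A) every library with a guide lay above every gCtl library, as was the case for 7.13% of all genes. In these bulk libraries, fewer cells expressing a gene and less RNA of it per cell cannot be told apart.

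**Figure D1:**
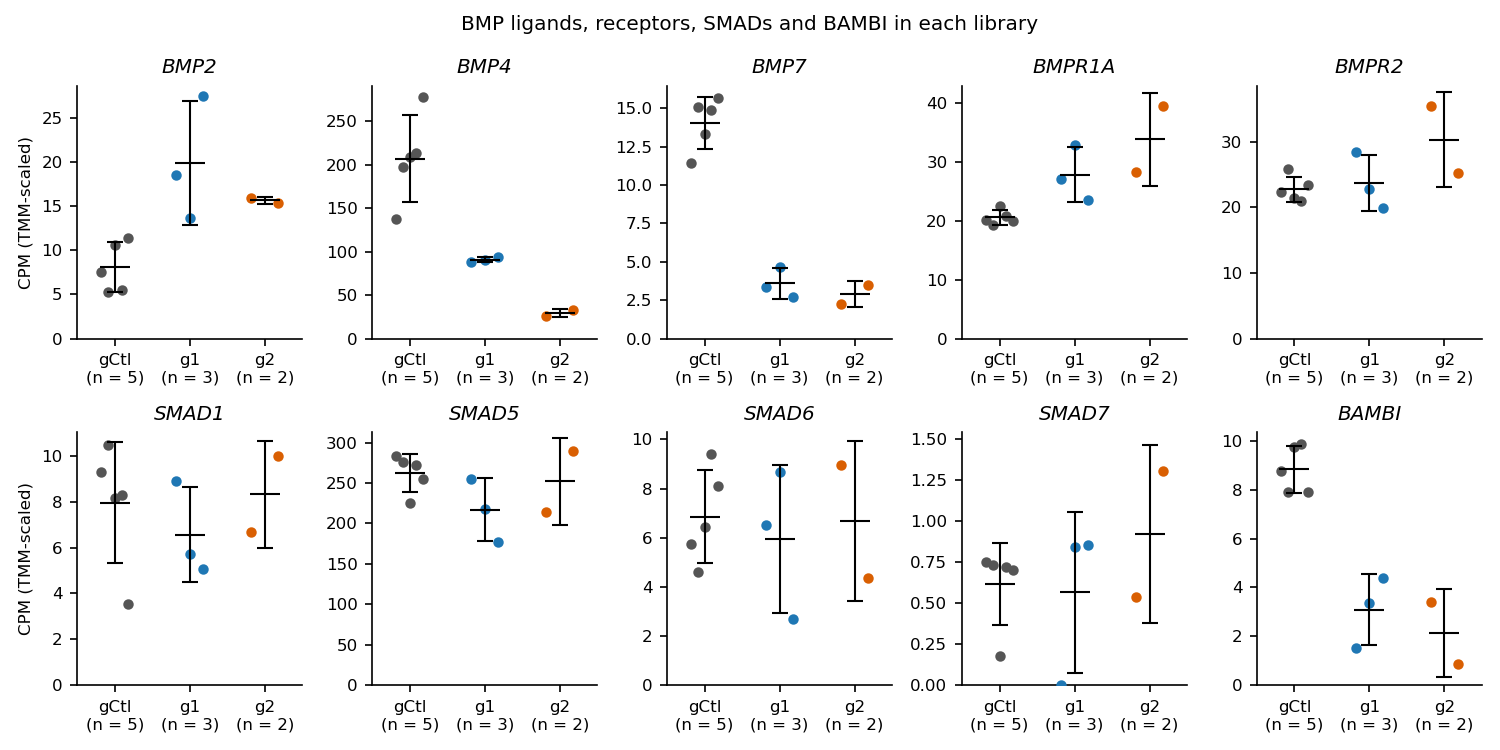
Level of each member in every library, in CPM on linear axes that start at 0, for gCtl (grey, n = 5), g1 (blue, n = 3) and g2 (orange, n = 2), with the mean and SD as black bars. The g1 and g2 points of BMP4, BMP7 and BAMBI lie below all gCtl points, those of BMP2 and BMPR1A lie above them, and those of the other 5 genes overlap with gCtl.

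BMP4 (ENSG00000125378.15, chromosome 14, 53949736 to 53958761, minus strand, GRCh38 here and below) is a ligand long studied in the mesenchyme under the gut epithelium. Of the 3 ligands among the members, it had the highest level per length in every library. In gCtl it stood at 138, 197, 209, 213 and 278 CPM. In g1 it stood at 88.3, 90.5 and 93.8 CPM, and in g2 at 26.2 and 32.7 CPM. The 3 groups did not overlap, and the g1 libraries lay closer to each other than the gCtl libraries did. Relative to gCtl the mean was 2.28-fold lower in g1 (90.9 ± 2.74 CPM, SD, n = 3) and 7.03-fold lower in g2 (29.4 ± 4.62 CPM, SD, n = 2), from 207 ± 50.0 CPM (SD, n = 5). The log2 fold change was -1.19 (SE 0.19, edgeR adjusted p = 0.000629) for g1 and -2.81 (SE 0.25, edgeR adjusted p = 4.35e-06) for g2. With both guides together it was -1.64 (SE 0.32, edgeR adjusted p = 0.00232).

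BMP4 was also the only one of the 9 tested members that was called between the guides. Compared directly, its log2 fold change of g2 against g1 was -1.62 (SE 0.24, edgeR adjusted p = 0.00158), and mean CPM was 3.09-fold higher in g1. Of all genes tested, 3.42% were called lower and 1.55% higher in g2 than in g1. For the other 8 tested members the guides were not told apart, with edgeR 95% confidence intervals of the log2 difference that ran from -1.70 to 0.52 for BAMBI at the widest and from -0.19 to 0.62 for SMAD5 at the narrowest. The share of counts on mitochondrially encoded genes also differed between the groups, at 16.8% and 12.0% in the g2 libraries, 19.0% to 20.6% in g1 and 18.3% to 24.0% in gCtl, and its part in the BMP4 difference was not tested. BMP4 kept its direction and its call in every alternative fit that was run.

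Nearly all BMP4 counts, 97.6%, were assigned to the transcript BMP4-003, which starts inside the gene. The RefSeq promoter window nearest to that start, with its start site 60 bases away, covers chr14:53953346-53953645 on the minus strand (GRCh38.p14, 250 bases before the start and 50 after). It is shown because most BMP4 counts were assigned to that transcript. Reads from the 3' end do not show which start site was used. Such windows were found for 8 of the 10 members, 16 windows in all, and not for BMP2 and BMP7. They were searched for GGCGCC and GTCTAGAC, which read the same on both strands, and for CAGAC on both strands, letters known from SMAD binding studies. None of these motifs contains another. The BMP4 window shown holds a single CAGAC, read on the opposite strand as GTCTG (capitals). That motif was found in 45.3% of 35116 windows of this length. Of the other BMP4 windows, chr14:53955001-53955300 held 2 GGCGCC and 1 CAGAC, and chr14:53954439-53954738 held 1 CAGAC.

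BMP4: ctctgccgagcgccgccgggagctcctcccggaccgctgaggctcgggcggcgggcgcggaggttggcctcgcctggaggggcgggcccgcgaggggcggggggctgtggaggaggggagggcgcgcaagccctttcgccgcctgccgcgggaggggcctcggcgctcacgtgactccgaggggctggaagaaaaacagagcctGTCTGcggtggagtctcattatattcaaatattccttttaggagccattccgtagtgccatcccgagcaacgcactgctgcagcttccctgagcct

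BMP7 (ENSG00000101144.12, chromosome 20, 57168748 to 57266629, minus strand), a ligand that can pair with BMP2 or BMP4 in a heterodimer, was low in all libraries with a guide. It stood at 11.4, 15.1, 13.3, 14.9 and 15.7 CPM in gCtl. It stood at 3.36, 4.67 and 2.74 CPM in g1 and at 2.28 and 3.48 CPM in g2. The highest library with a guide was thus well below the lowest gCtl library, while g1 and g2 overlapped. The log2 fold change was -2.01 (SE 0.27, edgeR adjusted p = 0.000214) for g1, -2.25 (SE 0.32, adjusted p = 0.000222) for g2 and -2.10 (SE 0.23, adjusted p = 5.88e-05) for both together. These values rest on 45.8 to 89.0 estimated counts per gCtl library and on 12.7 to 24.0 per library with a guide. BMP7 also kept its direction and call against gCtl in every alternative fit. Between the guides, where it was not called, its log2 fold change ran from -0.55 to 0.02 over these fits.

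BMP2 (ENSG00000125845.6, chromosome 20, 6767664 to 6780280, plus strand), closely related to BMP4 in sequence, moved the other way. It stood at 7.50, 5.32, 10.6, 5.54 and 11.4 CPM in gCtl. In g1 it stood at 18.5, 13.7 and 27.5 CPM, and in g2 at 16.0 and 15.4 CPM. Every library with a guide was above every gCtl library, and the g1 libraries spread on both sides of g2. BMP2 rose in g1 by a log2 fold change of 1.30 (SE 0.28, edgeR adjusted p = 0.00437) and in g2 by 0.94 (SE 0.31, adjusted p = 0.0376), or by 1.17 (SE 0.26, adjusted p = 0.0054) with both together. The g2 call was the least secure of the ligand calls, since it was lost when gCtl replicate 1, 2 or 4 or either g2 library was left out (edgeR adjusted p 0.0648 to 0.126), and when only protein_coding transcripts were summed (adjusted p = 0.0566).

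The makeup of the 3 ligands changed with these opposite movements. On the TPM scale, which divides by transcript length although these reads come only from the 3' end, BMP4 made up 94.2% to 95.6% of the summed BMP2, BMP4 and BMP7 level in gCtl. It made up 86.8% to 91.4% in g1 and 75.4% and 78.3% in g2. The BMP2 share was 1.17% to 2.39% in gCtl, 6.56% to 12.0% in g1, and 21.8% and 17.3% in g2. BMP4 therefore remained the most abundant of these 3 ligands in every library. Its TPM exceeded that of BMP2 by 58.4 ± 20.1-fold in gCtl (SD, n = 5), 10.4 ± 3.35-fold in g1 (SD, n = 3) and 3.99 ± 0.746-fold in g2 (SD, n = 2). Without division by length the CPM of BMP4 exceeded that of BMP2 by 27.6 ± 9.58-fold in gCtl, 4.93 ± 1.60-fold in g1 and 1.88 ± 0.341-fold in g2, and BMP2 made up 2.37% to 4.79%, 12.6% to 22.2% and 29.9% to 35.9% of the summed CPM. The summed TPM of the ligands was 169 ± 36.6 in gCtl, 79.3 ± 0.662 in g1 and 26.4 ± 4.34 in g2. No test was made on these shares, which follow from the values of the individual ligands.

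Mesenchymal cells are a known source of BMP4, and 9 of their markers were therefore read in the same libraries. Their summed level was 17.6 to 39.5 RPM in gCtl and 8.49 to 22.6 RPM in the libraries with a guide. PDGFRA alone stood at 11.4 to 29.8 RPM in gCtl and 1.15 to 10.1 RPM with a guide, and 0 of the 9 markers stayed above 3 RPM in every library. COL1A1 stood at 3.14 to 6.87 RPM in gCtl and 2.77 to 8.60 RPM with a guide, VIM at 0 to 0.82 and 0.49 to 3.58 RPM, DCN at 0.32 to 1.87 and 0.33 to 2.86 RPM, and COL1A2 at 0 to 2.51 and 1.51 to 2.32 RPM. The other 4 (COL3A1, LUM, PDGFRB and THY1) reached at most 1.62 RPM in any library. All libraries came from a single Caco-2 line, so these markers were read as transcripts of that line. Their relation to the BMP4 difference was not tested. Endothelial markers summed to 2.15 to 3.66 RPM in gCtl and 2.20 to 10.1 RPM with a guide, and immune markers to 13.8 to 24.3 RPM and 13.4 to 30.97 RPM.

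BMPR1A (ENSG00000107779.11, chromosome 10, 86756601 to 86932838, plus strand), the type I receptor for BMP2 and BMP4, was measured at 20.1, 19.4, 22.6, 20.9 and 20.0 CPM in gCtl, a narrow range. It was measured at 27.1, 32.9 and 23.6 CPM in g1, and at 28.3 and 39.5 CPM in g2. No library with a guide fell into the gCtl range. Its log2 fold change was 0.55 with both guides together (SE 0.16, edgeR adjusted p = 0.0213), which passed the p threshold but stayed under the required 1.5-fold. The log2 fold change in g1 was 0.42 (SE 0.17, edgeR adjusted p = 0.0908), not called. In g2, BMPR1A rose by a log2 fold change of 0.72 (SE 0.19, edgeR adjusted p = 0.0118), and this call was lost without g2 replicate 2 (adjusted p = 0.191). Its pseudogenes BMPR1APS1 and BMPR1APS2, which could draw reads from it, had 0 counts in all libraries.

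BMPR2 (ENSG00000204217.12, chromosome 2, 202376936 to 202567751, plus strand), the type II receptor that activates BMPR1A, was not called in any comparison. It stood at 22.3, 25.8, 21.4, 21.0 and 23.3 CPM in gCtl, at 28.4, 22.8 and 20.0 CPM in g1, and at 35.5 and 25.2 CPM in g2. One g2 library stood above the others and the rest overlapped. Its log2 fold change was 0.21 with both guides together (edgeR 95% confidence interval -0.15 to 0.56), so that a change of the size seen for the ligands lay outside the interval.

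SMAD5 (ENSG00000113658.16, chromosome 5, 136132845 to 136188747, plus strand), a receptor-activated SMAD, had the most counts of all members over the 10 libraries and was not called. It stood at 284, 277, 225, 272 and 255 CPM in gCtl, at 255, 218 and 177 CPM in g1, and at 214 and 290 CPM in g2. All groups overlapped. The log2 fold change was -0.18 with both guides together (edgeR 95% confidence interval -0.49 to 0.12, adjusted p = 0.371). Its TPM was far more variable than its CPM, at 99.8 and 345 in the g2 libraries, and the share of counts assigned to its main transcript SMAD5-201 ranged from 0.981% to 61.9% between libraries.

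SMAD1 (ENSG00000170365.9, chromosome 4, 145481194 to 145558079, plus strand) is the partner of SMAD5 downstream of the same receptors. It stood at 9.31, 10.5, 8.18, 8.28 and 3.53 CPM in gCtl, at 8.91, 5.71 and 5.06 CPM in g1, and at 6.66 and 9.98 CPM in g2. The log2 fold change was -0.12 with both guides together (edgeR 95% confidence interval -0.74 to 0.50, adjusted p = 0.796). This value depends on how reads were divided with SMAD1-AS1, an RNA on the opposite strand. Of the 481 exonic bases of SMAD1-AS1, 376 lie within SMAD1 exons, and 10 of 16 SMAD1 transcripts share words of 31 bases with it on the opposite strand. Those transcripts held 75.2% of the SMAD1 counts. Whether the counting used strand is not given in the sources used here, and reads of the pair cannot be told apart without it.

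SMAD1-AS1 had 0 counts in gCtl replicates 1 to 4 and 24.0 in gCtl replicate 5, which was also the gCtl library with the fewest CPM of SMAD1. It had 0.618, 37.4 and 34.8 counts in g1 and 39.8 and 102 counts in g2. Fitted with noncoding genes included, its log2 fold change was 3.48 in g2 (SE 0.92, edgeR adjusted p = 0.0148) and 2.06 in g1 (SE 0.92, edgeR adjusted p = 0.18, not called). With SMAD1 and SMAD1-AS1 summed as 1 gene, the sum was 8.80 ± 1.10 CPM in gCtl (SD, n = 5), 10.6 ± 2.57 in g1 (SD, n = 3) and 19.3 ± 7.80 in g2 (SD, n = 2). The sum rose in g2 by a log2 fold change of 1.15 (SE 0.26, edgeR adjusted p = 0.00522), but not without g2 replicate 2 (0.66, adjusted p = 0.176). It was not called in g1 (0.26, edgeR adjusted p = 0.487) or with both guides together (0.68, adjusted p = 0.0738), where its direction was opposite to that of SMAD1 alone. SMAD1 alone in g2 had a log2 fold change of 0.09 (edgeR adjusted p = 0.882).

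SMAD6 (ENSG00000137834.14, chromosome 15, 66702228 to 66782848, plus strand), an inhibitory SMAD that acts mostly on the BMP branch, was not called. It stood at 5.75, 4.59, 6.45, 9.39 and 8.09 CPM in gCtl, at 6.50, 8.65 and 2.68 CPM in g1, and at 8.96 and 4.36 CPM in g2. The groups overlapped, and the edgeR 95% confidence interval of the log2 fold change ran from -0.85 to 0.53 with both guides together. SMAD7 (ENSG00000101665.8, chromosome 18, 48919853 to 48952052, minus strand), which also blocks the TGF-beta branch, had 0 to 9 counts per library, or 38 in all. At this depth no difference was detectable (edgeR log2 fold change 0.23, SE 0.70, adjusted p = 0.855, in a fit with no filter beyond 10 counts in total). The SMAD6 promoter is shown because its window was the only one of the 16 with GTCTAGAC (capitals), a motif in 0.202% of all windows. It covers chr15:66701986-66702285 on the plus strand (RefSeq, GRCh38.p14), with the start site 8 bases from that of the main SMAD6 transcript.

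SMAD6: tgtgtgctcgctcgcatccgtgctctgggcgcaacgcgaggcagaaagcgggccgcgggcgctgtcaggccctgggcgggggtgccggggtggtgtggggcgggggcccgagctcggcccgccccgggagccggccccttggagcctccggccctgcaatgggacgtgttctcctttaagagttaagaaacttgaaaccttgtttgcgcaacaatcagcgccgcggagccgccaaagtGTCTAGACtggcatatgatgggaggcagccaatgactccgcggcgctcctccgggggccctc

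BAMBI (ENSG00000095739.10, chromosome 10, 28677342 to 28682939, plus strand), a transmembrane protein that resembles a type I receptor but lacks the kinase, fell in both groups. It stood at 8.75, 7.90, 9.77, 9.87 and 7.92 CPM in gCtl. It stood at 1.5, 3.38 and 4.38 CPM in g1 and at 3.41 and 0.87 CPM in g2. The gCtl libraries lay close together, and the libraries with a guide were all below them and more scattered. The log2 fold change was -1.49 in g1 (SE 0.39, edgeR adjusted p = 0.0136), -2.08 in g2 (SE 0.48, adjusted p = 0.00596) and -1.70 with both together (SE 0.35, adjusted p = 0.00324). These values rest on 35 to 56 counts per gCtl library and 6 to 36 per library with a guide. The g1 call was lost without g1 replicate 1 (log2 fold change -1.16, edgeR adjusted p = 0.0629) and the g2 call without g2 replicate 2 (-1.36, adjusted p = 0.085), whereas the call with both guides together held when any library was left out.

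The BAMBI promoter is shown because it held the most GGCGCC motifs of any member window. The window chr10:28677271-28677570 (plus strand, RefSeq, GRCh38.p14) has 3 GGCGCC and 2 CAGAC on either strand, in capitals. GGCGCC occurred in 6 of the 16 member windows, in 5 members, and in 19.2% of all windows. CAGAC occurred in 8 member windows, in 5 members. These are matches of letters and not measured sites.

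BAMBI: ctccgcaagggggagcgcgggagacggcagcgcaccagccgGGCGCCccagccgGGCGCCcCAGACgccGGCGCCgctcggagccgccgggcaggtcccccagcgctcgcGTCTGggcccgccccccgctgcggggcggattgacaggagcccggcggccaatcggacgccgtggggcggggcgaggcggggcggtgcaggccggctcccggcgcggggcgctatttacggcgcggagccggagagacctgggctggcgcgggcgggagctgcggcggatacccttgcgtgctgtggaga

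**Figure D2:**
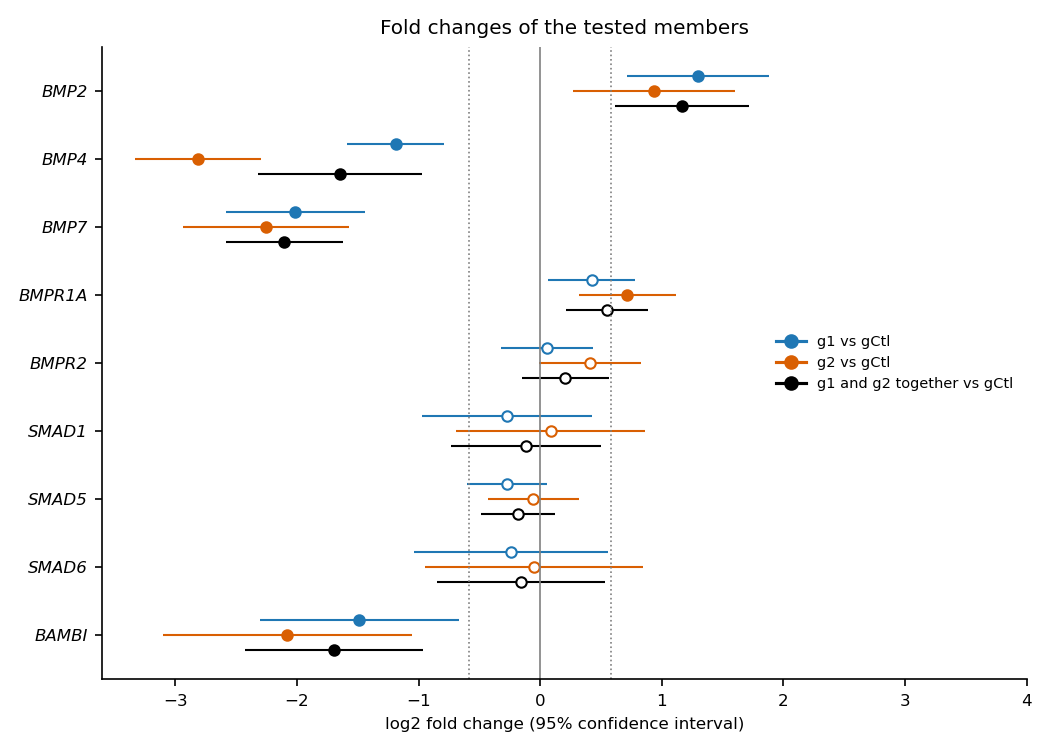
Log2 fold change against gCtl of the 9 tested members with edgeR 95% confidence intervals, for g1 (blue), g2 (orange) and both together (black). Filled points passed the call, open points did not, and dotted lines mark a fold change of 1.5 in either direction; the intervals of g1 and g2 are apart for BMP4 and overlap for the other 8 genes.

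Each guide was also read on its own. In g1 against gCtl, 3 members were called lower (BMP4, BMP7 and BAMBI), beside 9.91% of all genes tested, and 1 higher (BMP2), beside 6.81%. In g2 against gCtl, the same 3 members were lower, beside 13.0% of all genes, and 2 were higher (BMP2 and BMPR1A), beside 10.7%. The comparisons share the gCtl libraries. Under scaling by library totals the median of all genes in g2 moved to -0.16 on the log2 scale, and relative to TMM that scaling took the calls of BMP2 and BMPR1A in g2 away (edgeR adjusted p = 0.0647 for BMP2, and a fold change under 1.5 for BMPR1A) and left those of BMP4, BMP7 and BAMBI.

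On the TPM scale, the levels of the members in gCtl were ordered as BMP4 (161 ± 35.4), SMAD5 (150 ± 19.5), SMAD1 (9.00 ± 4.40), BAMBI (6.24 ± 0.785), BMP7 (5.16 ± 0.838), BMPR2 (3.84 ± 0.099), BMP2 (2.96 ± 1.01), BMPR1A (2.42 ± 0.177), SMAD6 (2.24 ± 0.564) and SMAD7 (0.264 ± 0.106; mean TPM ± SD, n = 5 for each). Neighbouring means lay within the larger of their SDs for BMP4 and SMAD5, SMAD1 and BAMBI, BMPR2 and BMP2, BMP2 and BMPR1A, and BMPR1A and SMAD6. BMP4 was below SMAD5 in 2 of the 5 gCtl libraries. In g1 BMP4 stood at 70.7 ± 2.01 and SMAD5 at 182 ± 45.2 TPM (SD, n = 3), and in g2 at 20.4 ± 3.87 and 223 ± 174 TPM (SD, n = 2). Division by length bears on this order, since the reads come from the 3' end. On the CPM scale, which does not divide by length, the gCtl means ran from SMAD5 (263) and BMP4 (207) through BMPR2 (22.8), BMPR1A (20.6), BMP7 (14.1), BAMBI (8.84), BMP2 (8.09), SMAD1 (7.96) and SMAD6 (6.85) to SMAD7 (0.617).

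The wider pathway was read from 101 further genes, of which 62 entered the test. With both guides together 7 were lower and 8 higher, or 11.3% and 12.9%, beside the 11.0% and 8.14% of all genes. In g1, 6 were lower (9.68%, beside 9.91% of all genes) and 8 higher (12.9%, beside 6.81%). In g2, 11 were lower (17.7%, beside 13.0%) and 13 higher (21.0%, beside 10.7%). The median log2 fold change of the 62 genes was 0.15 with both guides together. These genes were fitted with the main settings alone. The filter counts libraries of all groups, so a gene high only in gCtl could enter the test through gCtl. TGFB2 and FURIN did so, and ID1, GATA2, INHBB and GDF15 passed only with gCtl libraries counted.

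Besides the members SMAD6, SMAD7 and BAMBI, 11 immediate targets of BMP signal were listed, of which 6 entered the test. With both guides together 2 of them were called lower (ID1 and MSX2), beside 11.0% of all genes, and 0 higher, beside 8.14%. ID1, an inhibitor of differentiation factors that SMADs switch on directly, ranged from 2.99 to 35.5 CPM in gCtl, from 0.42 to 1.5 CPM in g1 and was 1.02 and 3.94 CPM at its lowest and highest in g2, so that g2 and gCtl overlapped. Its log2 fold change was -3.54 with both guides together (SE 0.60, edgeR adjusted p = 0.00112). MSX2, a homeobox gene, ranged from 20.2 to 27.4 CPM in gCtl and from 6.69 to 14.2 CPM with a guide, with a log2 fold change of -1.09 (SE 0.20, edgeR adjusted p = 0.00165). ID2, a relative of ID1, had a log2 fold change of -0.04 and HAMP had one of 0.32, and neither was called. ID3 was below the filter, with 40 counts summed over gCtl and 10 summed over g1 and g2. MSX1 and the transcription factor GATA2 were called lower in g2 but not in g1 (g2 log2 fold changes -0.65 and -2.13, edgeR adjusted p = 0.0267 and 0.00953). Neither was told apart between g1 and g2 (adjusted p = 0.399 and 0.161).

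Of the TGF-beta and activin ligands, 4 of 7 entered the test. With both guides together 2 fell (50%, beside 11.0% of all genes) and 0 rose (beside 8.14%). INHBB, the activin beta B subunit, fell from 13.2 ± 3.30 CPM in gCtl (SD, n = 5) to 3.43 ± 4.31 CPM in g1 (SD, n = 3) and 1.08 ± 0.500 CPM in g2 (SD, n = 2). Its highest g1 library, at 8.40 CPM, stood above its lowest gCtl library, at 7.90 CPM, so that g1 and gCtl overlapped. TGFB2 fell from 4.03 ± 0.252 to 1.35 ± 0.879 and 0.632 ± 0.134 CPM. It reached at most 2.33 CPM in any library with a guide, so it entered the test through its gCtl libraries alone. For such a gene the filter favours a fall, and the 50% is not read as a result about these ligands. Summed over g1 and g2, INHBB had 92 counts and TGFB2 had 34. Of the other BMP and GDF ligands, 5 of 15 entered the test. With both guides together 1 fell (20%, beside 11.0% of all genes) and 0 rose (beside 8.14%). The 1 that fell was GDF15, a stress-induced member of the family (log2 fold change -1.67, SE 0.48, edgeR adjusted p = 0.0211). GDF15 was called in g1 (-2.30, edgeR adjusted p = 0.00721) but not in g2 (-1.03, adjusted p = 0.183) or between the guides. In g2, GDF6 was higher and GDF11 lower (edgeR log2 fold changes 1.33 and -0.64), and neither was called between g2 and g1. GDF6 ranged from 26.3 to 86.6 CPM in gCtl, from 39.5 to 95.9 CPM in g1 and from 68.2 to 175 CPM in g2. In g2 its CPM was thus above that of BMP4, which reached 32.7 CPM there. BMP3, BMP5, BMP6 and NODAL had counts but were below the filter. Summed over gCtl they had 6.71, 1, 6 and 18.4 counts, and summed over g1 and g2 they had 48.0, 9.81, 35 and 13.

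Among 11 tested receptors and coreceptors, 1 fell and 2 rose with both guides together. These were 9.09% and 18.2%, beside 11.0% and 8.14% of all genes. ACVR1B, a type I receptor for activin and NODAL, fell (log2 fold change -0.99, SE 0.18, edgeR adjusted p = 0.0018). ACVR2A, a type II receptor shared by activins and BMPs, rose (0.70, SE 0.18, adjusted p = 0.0109), as did TGFBR1, the type I receptor for TGF-beta (0.93, SE 0.24, adjusted p = 0.0117). The BMP type I receptor BMPR1B had a log2 fold change of -0.19 and was not called. None of SMAD2, SMAD3 and SMAD4, the 3 other SMADs tested, was called, with log2 fold changes of 0.22, -0.05 and 0.23. SMAD4 is the shared partner of receptor-activated SMADs in the complexes that act on target genes.

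Of the secreted antagonists, 6 of 19 entered the test. With both guides together 1 rose (16.7%, beside 8.14% of all genes) and 0 fell (beside 11.0%). The 1 that rose was DAND5 (log2 fold change 0.90, SE 0.23, edgeR adjusted p = 0.0126). CRIM1 was called lower in g2 (-0.66) but not in g1 or between the guides. GREM1, which binds BMP2, BMP4 and BMP7 outside the cell, had a log2 fold change of -0.22 and was not called. NOG was below the filter, with 3 counts summed over gCtl and 20 summed over g1 and g2. Of the 6 tested proteases that process ligands or antagonists, 1 rose and 1 fell (16.7% each, beside 8.14% and 11.0% of all genes). The proprotein convertase PCSK7 rose (1.28, SE 0.27, edgeR adjusted p = 0.00387) and FURIN, which cleaves BMP precursors, fell (-1.32, SE 0.38, adjusted p = 0.0216). FURIN ranged from 2.75 to 4.01 CPM in gCtl and from 0.58 to 2.67 CPM with a guide, with 44 counts summed over g1 and g2. It too entered the test through gCtl alone, so the share of proteases that fell is not read as a result. FURIN was called in g2 (-1.97, edgeR adjusted p = 0.0148) but not in g1 (-1.02, adjusted p = 0.0974). Of 21 tested intracellular regulators 4 rose with both guides together (19.0%, beside 8.14% of all genes) and 0 fell, beside 11.0%. These were PMEPA1, an inhibitor of receptor SMADs (1.95, SE 0.36, edgeR adjusted p = 0.00183), TOB1 (0.77), TOB2 (0.69) and XIAP (0.61). XIAP was called in g2 (0.82) but not in g1 (0.46, edgeR adjusted p = 0.0681). In g2, SKI (1.06), SKIL (0.70), LEMD3 (0.60) and TGIF2 (0.82) were also higher and FKBP1A (-1.23), a protein that holds type I receptors inactive, was lower. Of these, SKIL and FKBP1A also differed between g2 and g1 (edgeR log2 fold changes 1.06 and -0.99, adjusted p = 0.0168 and 0.0211). PPM1A was called in g1 (0.59) and not in g2 (0.57, under the minimum fold change).

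**Figure D3:**
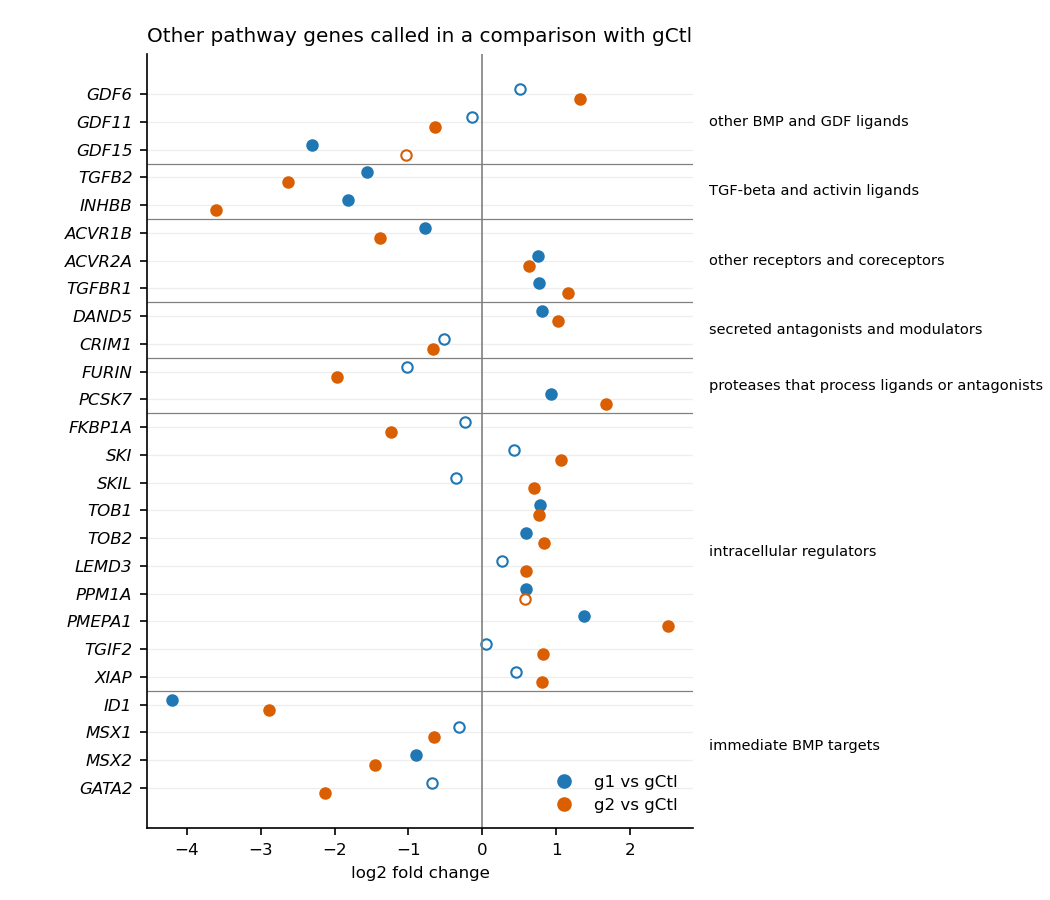
Log2 fold change against gCtl in g1 (blue) and g2 (orange) of the 26 genes of the wider pathway lists that were called with either guide or with both together, grouped by list; filled points passed the call and open points did not. The lowest points belong to ID1 (-4.21 in g1) and INHBB (-3.61 in g2), and the highest to PMEPA1 (2.52 in g2).

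The genes whose level followed BMP4 and BMP7 most closely over the 10 libraries were found by the correlation of log2 CPM, given as a description because the libraries fall into the same 3 groups. For BMP4 these were PTPRM, a receptor tyrosine phosphatase (r = 0.994), LTBP1, which binds latent TGF-beta in the matrix (r = 0.989), and RASSF8 (r = 0.987). Each had the same order of groups as BMP4, with LTBP1 at 57.1 ± 18.5 CPM in gCtl, 21.4 ± 5.39 CPM in g1 and 4.82 ± 0.990 CPM in g2 (SD, n = 5, 3 and 2). For BMP7 they were ABCA3 (r = 0.979), NKD1, an inhibitor of Wnt signal (r = 0.976), and SLC25A37 (r = 0.969). NKD1 stood at 39.8 ± 3.90 CPM in gCtl, 9.77 ± 3.39 CPM in g1 and 7.08 ± 0.260 CPM in g2.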

How the data were processed

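RNA was measured in 10 QuantSeq 3' libraries of Caco-2 cells (5 gCtl, 3 g1, 2 g2). The authors pseudoaligned the reads to GENCODE transcripts with kallisto (version 42.5 per the submitters' processing notes) and deposited the estimated counts of 199169 transcripts per library, neither normalized nor pooled. A read that matched several transcripts was divided among them, so values need not be whole, and transcripts that share bases can exchange counts.

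Here the estimated counts were summed per gene and rounded. Protein-coding genes that exceeded 3 RPM in 20% or more of the libraries (11640) were fitted with edgeR 4.0.16 in R 4.3.3 (TMM, glmQLFit, glmQLFTest), with g1 and g2 as 1 group against gCtl, and in a second fit as 3 groups. A gene was called where p, adjusted by Benjamini-Hochberg, did not exceed 0.05 and the change was 1.5-fold or larger. TPM was computed from the counts and annotated lengths. A single count was worth 0.115 to 0.26 RPM, which limits low genes; intervals on them cover the fitted spread. Gene positions were taken from GENCODE and promoters from RefSeq.

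The members and lists were chosen with earlier results of these data known, so no list was tested. Genes outside the members were named where a fixed list of the pathway held them and they were called in at least 1 comparison, or for their role. SMAD1 and SMAD1-AS1 were summed as an alternative chosen after seeing the data. Other alternatives were DESeq2 1.42.0, other scalings and filters, limma 3.58.1 on log2(RPM + 1), glmTreat and each library left out. The fits were tested on simulated data with known changes.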

Additional observations from a re-analysis of the deposited data

Results flagged for a closer look

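BMP4 differed between the guides by a test of the difference itself, with an edgeR log2 fold change of g2 against g1 of -1.62 (SE 0.24, adjusted p = 0.00158). Both g2 libraries were below all 3 g1 libraries.

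In groups of 5 libraries, the distance of the most extreme library to its neighbour was compared with the whole range of the group, and 22 groups were looked at, of which chance marks about 5%. SMAD7 stood out in gCtl, where the lowest library took 0.92 of the range (0.17 CPM, or 1 count, against 0.70 to 0.75 CPM, or 3 to 4 counts, in the others). SMAD1-AS1 stood out in gCtl with a value of 1, since gCtl replicate 5 was at 4.23 CPM and the other 4 libraries were at 0. With so few counts or ties at 0, the 5% need not hold for either gene. The library gCtl replicate 5 also had the fewest CPM of SMAD1 in gCtl, at 3.53.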

How the results depend on the processing

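Of 715 member values recomputed under alternatives, 693 kept their direction where called and their side of the threshold, 18 lost their call, 4 gained it and 0 turned round. BMP4 and BMP7 kept theirs in all 158. Most of the 715 were values not called in the main fits, so the 693 say little about how firm the calls are. In g2, BMP2 lost its call in 9 of 20 alternatives and BMPR1A in 4 of 20. glmTreat, which tests for changes beyond 1.5-fold, left 488 genes called with both guides together, 506 in g1, 802 in g2 and 92 between g2 and g1. It left 2 members called in g1, where BMP2 (adjusted p = 0.0549) and BAMBI (0.0922) lost their calls, and 3 in g2, and it took away the BMP2 call with both guides together (0.0878). Library totals in place of TMM and limma on log2(RPM + 1) each left 3 members called in g2, without BMP2 and BMPR1A. Between g2 and g1, 310 genes were called when only protein_coding transcripts were summed and 159 when gCtl was left out of the fit. The sum of SMAD1 and SMAD1-AS1 was called in g2 (1.15). The cause of these shifts was not tested, apart from the narrower criterion of glmTreat. With each library left out in turn, genes called ranged from 1258 (without g1 replicate 3) to 2260 in g1, from 1503 (without g2 replicate 2) to 3127 in g2, and from 266 (without g1 replicate 1; 313 without g1 replicate 2) to 865 between g2 and g1. Members called in g2 ranged from 2, without g2 replicate 2, to 5. BMPR1A was called with both guides together without gCtl replicate 3, g1 replicate 1 or g1 replicate 3 (edgeR log2 fold changes 0.59, 0.59 and 0.62). A lone remaining g2 library was assumed to vary like the other groups. The LHFPL3-AS2 difference in mean log2(RPM + 1), which was not taken from a fit, was 0.29 to 0.63 with each library left out. No paired analysis was possible because the labels carry no replicate numbers. Genes with few counts, such as SMAD7 and BAMBI in g2, are limited by depth.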
